A study of Mus musculus with 83 samples.

Results

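The microRNAs (miRNAs) of the Mir143/Mir145 and Mir199/Mir214 clusters were followed through small RNA libraries of mouse embryonic stem cells (ESCs), AGO2 pull-downs and primordial germ cells (PGCs). The 6 features were taken by name, Mir143, Mir145, Mir199a-1, Mir199a-2, Mir199b and Mir214, out of 32101 features in all, of which 1573 are annotated as miRNAs. They were chosen by their RPM values (reads in a feature scaled to the library's total) over the days of culture, which had been seen to change in both genotypes, so those changes are described here without a test. Of the 6, 5 were found under their own names, and Mir199b was found as the feature AL808027.2, whose position carries the Mir199b hairpin of RefSeq base for base. Only 5 passed the filter on low values (at least 10 RPM in at least 3 of the time course libraries), because Mir199a-1 was listed at 0 in every library but 1.

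miRNAs are cut by DICER from hairpin transcripts into strands of about the length of a small interfering RNA, and a strand loaded into an Argonaute protein such as AGO2 pairs through its seed, bases 2 to 8, with target mRNAs. Mir143 and Mir145 are made from one shared primary transcript and are best known from smooth muscle, fibroblasts and other mesenchymal cells, and miR-145 is known to target mRNAs of pluripotency factors. Mir199a-2 and Mir214 lie in Dnm3os, a non-coding transcript on the strand opposite to Dnm3, and belong to the mesenchyme of the developing skeleton, where the factor Twist1 acts on Dnm3os. None of these miRNAs is a hallmark of ESCs, in which the Mir290 to Mir295 cluster prevails.

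In the genome build of the files, NCBIM37, Mir199a-1 lies at chr9:21300939-21301008 on the minus strand, in an intron of Dnm2. Mir199a-2 lies at chr1:164147945-164148054 and Mir214 at chr1:164153499-164153608, both on the plus strand, in an exon of Dnm3os and an intron of Dnm3. Mir199b lies at chr2:32173980-32174089 on the plus strand, in an intron of Dnm1. The mature strands below show which of these loci can be told apart by a read. They are RefSeq sequences of the GRCm38.p6 table, 5′ to 3′, with the seed in capitals.
mmu-miR-199a-5p (Mir199a-1 and Mir199a-2): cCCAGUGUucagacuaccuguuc
mmu-miR-199a-3p (Mir199a-1 and Mir199a-2), the same letters as mmu-miR-199b-3p (Mir199b): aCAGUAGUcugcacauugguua
mmu-miR-214-5p: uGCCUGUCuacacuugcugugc
mmu-miR-214-3p: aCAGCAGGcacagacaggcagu

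No pair of these 4 strands shares a seed. The sequence of miR-199a-5p has 2 exact copies in NCBIM37 and that of miR-199a-3p has 3, whereas each strand of miR-214 has 1. The Mir199b hairpin carries, opposite miR-199a-5p, the stretch below, in which the capital marks the difference C10U (counted from 1 at the 5′ end of miR-199a-5p).
Mir199b hairpin, 5′ arm: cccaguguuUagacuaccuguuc
The longest stretch shared by Mir199a-1 and Mir199a-2 was 27 bases on the 5′ arm and 26 on the 3′ arm, at or above the 20 to 24 bases of the reads kept by the authors. A mature miR-199a read therefore fits more than 1 locus, and how such reads were placed is not given in the sources used here. The values of Mir199a-1, Mir199a-2 and Mir199b are thus uncertain as to locus, and as to level too if such reads were left out. In the 36 time course libraries 99.9% of the Dnm3os reads lay in Mir199a-2 or Mir214. Dnm3, on the opposite strand, held at least the reads of these 2 miRNAs in 36 of 36 libraries, so the counts do not separate strands, and Dnm3os and Dnm3 carry no information beyond the miRNAs.

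The ESCs carried the maintenance methyltransferase gene Dnmt1 flanked by loxP sites, and Cre, switched on with tamoxifen, deleted it (Dnmt1 KO) or it was left in place (control). All time course groups share this floxed line, in 3 libraries per genotype on days 1, 3, 6, 9, 11 and 25. The labels give the strain as E14, the methods of the study as C57BL/6, and the cells were kept with or without feeder cells, with no statement of which libraries had feeders. AGO2 pull-downs had 4 libraries per genotype (day 9 by the results text of the study, no day in the labels), and libraries labelled "none" had 1 per genotype. PGCs of E13.5 and E14.5 had 1 per sex and day, sorted by an Oct4-GFP reporter from embryos labelled C57BL/6 (C57BL/6J in the methods). Another 30 time course libraries and 3 PGC libraries carry the suffix R1 and the names of the others. Groups follow the titles, and the genotype tags give the opposite genotype in the AGO2, "none" and R1-suffixed libraries of days 1 to 9. No source says that the libraries of a group came from separate cultures, so p-values measure the spread between libraries, which may be technical.

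The reads behind a library were 870481 to 6239009 on days 1 to 11, 521066 to 815523 on day 25, 11497722 to 25422988 in AGO2 control, 1152390 to 11520128 in AGO2 KO, 9830 and 57155 in the "none" libraries and 1734576 to 3435993 in PGCs. Day 25 was thus the shallowest point of the time course, where 3 reads over a group were worth 1.58 RPM (control) and 1.55 RPM (Dnmt1 KO). Small RNA reads in Dnmt1 do not check the genotype labels. In the time course Dnmt1 KO ranged from 18.1 to 64.3 RPM over the days and control from 23.1 to 95.02, KO lay above control on day 6 and below it on day 11, and the other days overlapped. In the AGO2 libraries those titled KO held more of them, at 2.34 to 4.50 RPM against 0.783 to 1.77 RPM in those titled control. In bulk libraries fewer cells of a type and less of a miRNA per cell cannot be told apart.

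The levels of the members did not decline day by day. In both genotypes the 5 group means were lower on day 6 than on day 3, highest on day 9, lower again on day 11 and lowest on day 25. Mir143, the most abundant member, was at 9031, 8944 and 11098 RPM in the 3 control libraries of day 1, at 6609, 7005 and 6027 RPM on day 6, at 14551, 10680 and 11710 RPM on day 9, and at 947, 896 and 1009 RPM on day 25. In Dnmt1 KO it was at 10787, 9282 and 10789 RPM on day 1, 11036, 11750 and 12290 RPM on day 6, 22360, 20480 and 22480 RPM on day 9, and 1215, 1262 and 1215 RPM on day 25. Each day 25 library thus lay far below each earlier library of its genotype. Per kilobase of its span Mir143 ranked 8th of the 1573 miRNA features in control on day 1 and 38th on day 25.

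**Figure D1:**
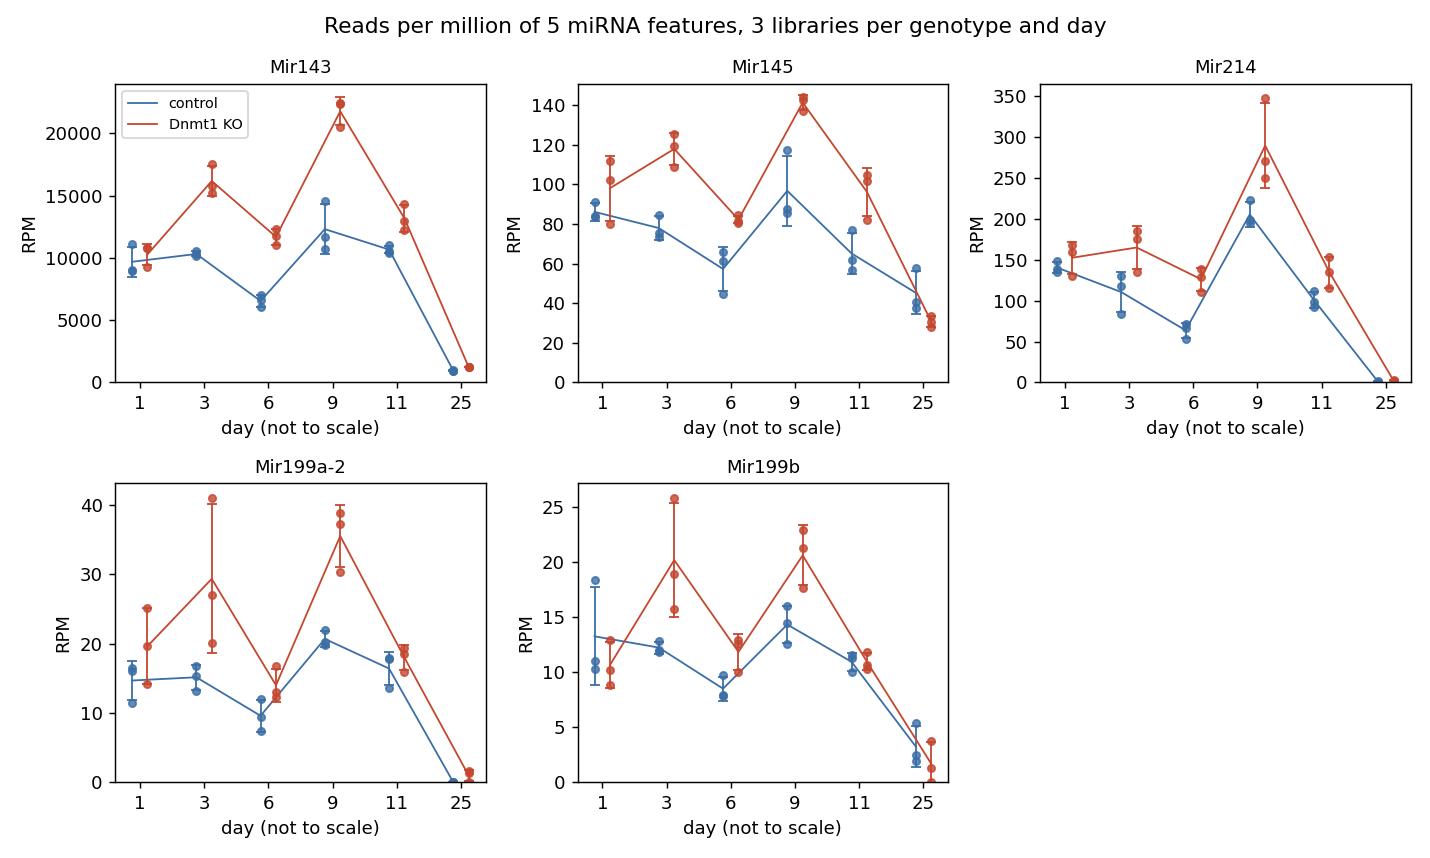
RPM of 5 members (vertical axes, each from 0) by day (horizontal axis, not to scale) in control and Dnmt1 KO, with 1 point per library, lines through the means and bars of 1 SD (n = 3). The peak of day 9 and the low level of day 25 are seen in all 5 panels, and on day 25 Mir143 had means of 951 RPM (control) and 1231 RPM (Dnmt1 KO).

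Mir214 had the widest course. In control it was at 148, 139 and 134 RPM on day 1, 71.7, 66.0 and 53.3 RPM on day 6, 222, 198 and 195 RPM on day 9, and on day 25 at 1.79, 0 and 0 RPM, which is 1 read in all. In Dnmt1 KO it was at 159, 131 and 168 RPM on day 1, 347, 271 and 249 RPM on day 9, and 3.22, 1.28 and 1.90 RPM on day 25, which is 4 reads in all. The pooled level of day 1 was 268 times that of day 25 in control (95% exact interval 48.0 to 10604) and 71.2 times in Dnmt1 KO (27.7 to 262). These and the following intervals cover counting error only, and the pooled level is the sum of a group's reads over the sum of its totals.

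Mir143 and Mir145 lie on the minus strand of chr18, at chr18:61808850-61808912 and chr18:61807470-61807557, and no other feature of the table overlaps them. Mir145 differed least between day 1 and day 25. It was at 91.1, 83.2 and 83.9 RPM in control on day 1 and at 37.6, 57.6 and 40.5 RPM on day 25, a pooled ratio of 1.95 (1.54 to 2.49). In Dnmt1 KO it was at 102, 79.9 and 112 RPM on day 1 and at 33.8, 28.2 and 30.3 RPM on day 25, a ratio of 3.07 (2.35 to 4.07). For Mir143 the ratios were 9.73 (9.29 to 10.2) and 8.19 (7.86 to 8.53). Although Mir143 and Mir145 come from 1 transcript, their intervals did not overlap in either genotype, so the level of Mir143 relative to Mir145 was lower on day 25 than on day 1 in both.

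The Mir199 features were listed at low values throughout, at 11.5 to 16.5 RPM (Mir199a-2) and 10.3 to 18.4 RPM (Mir199b) in control on day 1. They were at 30.4 to 38.9 and 17.6 to 22.9 RPM in Dnmt1 KO on day 9. Reads that fit more than 1 locus may be missing from these values. Mir199a-2 had no read in the 3 control libraries of day 25, so that day 1 was at least 8.998-fold higher (against 3 reads over the group), and 2 reads in Dnmt1 KO, a ratio of 17.5 (4.76 to 146). On day 25 Mir199b had 6 reads in control against 3 in Dnmt1 KO, and its ratios were 4.38 (1.92 to 12.3) and 6.82 (2.26 to 33.7). At this depth the order of the Mir199 and Mir214 levels on day 25 could not be read. Mir199a-1 had no read in any of the 36 libraries.

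All 5 members that passed the filter were lower on day 25 than on day 1 with no overlap of the libraries, in control, where 26.5% of the 2582 tested features did so, and in Dnmt1 KO, where 25.4% did. All 5 were also higher on day 9 than on day 6, beside 20.9% of features in control and 19.8% in Dnmt1 KO, and lower on day 11 than on day 9, beside 27.8% and 28.6%. Since the members were chosen for their course over days, nothing is read from these counts. On the log2(RPM + 1) scale, which understates the change of low features, the median of the 5 members from day 1 to day 25 was -3.48 in control and -2.99 in Dnmt1 KO, beside -0.04 and -0.01 over all tested features and -0.56 and -0.36 over the 287 tested miRNA features. From day 6 to day 9 the members' median was 0.86 in control and 1.07 in Dnmt1 KO, beside 0.02 and -0.00 over all tested features. From day 1 to day 6 it was -0.48 in control and -0.15 in Dnmt1 KO.

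**Figure D2:**
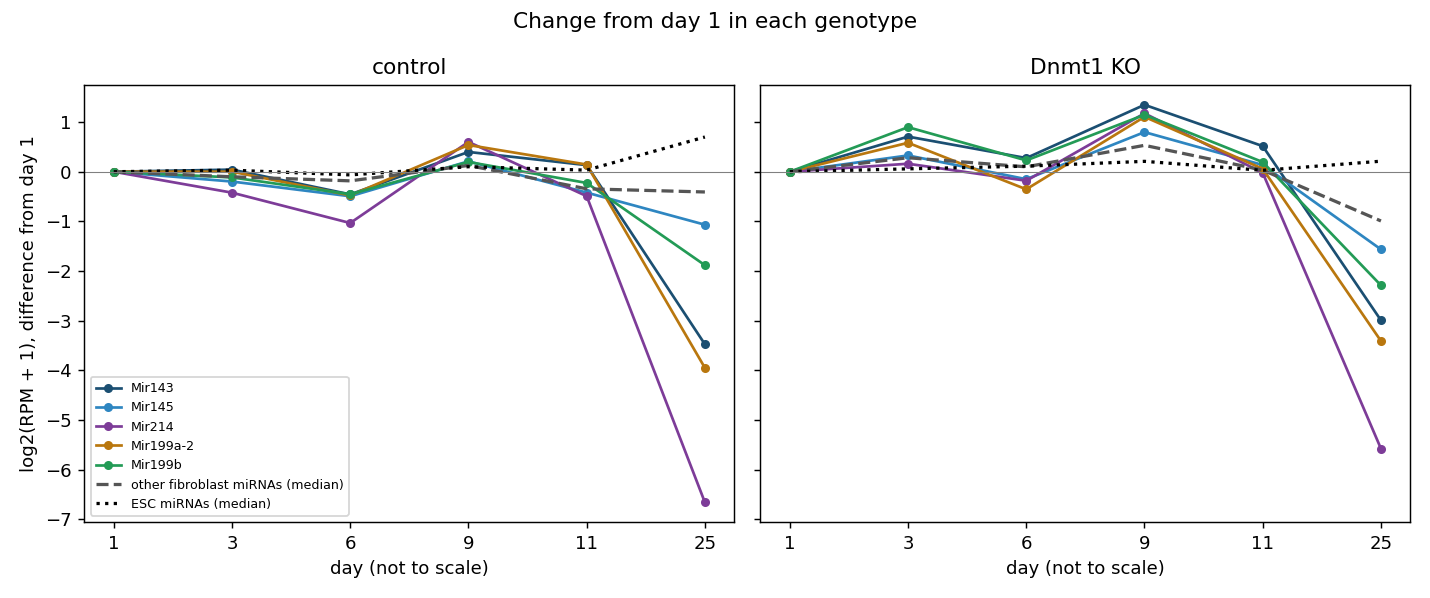
Difference from day 1 in log2(RPM + 1) (vertical axis) by day (horizontal axis, not to scale) for 5 members, with the medians of other fibroblast miRNAs and of ESC miRNAs as broken lines, in control (left) and Dnmt1 KO (right). All 5 are highest on day 9 and lowest on day 25, but they part in sign before that, as on day 6 in Dnmt1 KO (0.28 for Mir143, -0.35 for Mir199a-2), and spread on day 25, where Mir145 lies at -1.07 in control and -1.56 in Dnmt1 KO and Mir214 at -6.66 and -5.58. The day 25 points of Mir214, Mir199a-2 and Mir199b rest on at most 3 reads a library and depend on the pseudocount of 1 RPM.

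The members' levels moved together across libraries. Over the 36 time course libraries Pearson's r of log2 values lay between 0.850 (Mir145 and Mir199b) and 0.981 (Mir143 and Mir199a-2), and over the 30 libraries of days 1 to 11 between 0.743 (Mir199b and Mir214) and 0.899 (Mir145 and Mir214). These libraries share days and genotypes, and the values are a description. The pair from the shared transcript, Mir143 and Mir145, was at 0.896 over 36 libraries and was not the most alike pair.

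Outside the clusters, the features whose courses were most like the mean course of the 5 members (Pearson's r over 36 libraries, in parentheses the r over the 30 libraries of days 1 to 11) were Mir29a at 0.987 (0.967), Mir98 at 0.983 (0.947), Mir221 at 0.982 (0.970), Mirlet7b at 0.977 (0.864), D230004N17Rik at 0.974 (0.904), Mirlet7i at 0.972 (0.956), Mirlet7d at 0.971 (0.889), Huwe1 at 0.970 (0.937), and Hoxb4 and Mir10a at 0.970 (0.916). Mir98, Mirlet7b, Mirlet7i and Mirlet7d are members of the let-7 family, miRNAs known to accumulate as cells differentiate. Mir10a lies within the span of Hoxb4 and Mir98 within that of Huwe1, so these pairs share reads, and the table files Mir10a as a processed transcript. For Mir143 and Mir145 alone the first was Mir221 at 0.972, and for the Mir199 and Mir214 features it was Mir29a at 0.984. Mirlet7i, for example, had a mean of 736 RPM in control on day 1, 1149 on day 9 and 23.4 on day 25.

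Other lists were set beside the members. Of 19 other miRNAs known from fibroblasts, 17 features were tested, and their median from day 1 to day 25 was -0.41 in control and -0.99 in Dnmt1 KO. Their summed level was 41129 to 44003 RPM in control on day 1, 46655 to 54386 on day 9 and 32355 to 33662 on day 25, and 62248 to 96361 RPM on day 3, 67320 to 77742 on day 9 and 34303 to 37498 on day 25 in Dnmt1 KO. Its highest mean was thus on day 9 in control. In Dnmt1 KO the means of days 3 and 9 were close, at 74208.5 and 73824.6 RPM, with the wider spread on day 3. Fragments of 18 fibroblast mRNAs summed to 59.1 to 82.7 RPM in control on day 1, 60.6 to 65.6 on day 6, 64.6 to 74.2 on day 9, 115 to 130 on day 11 and 26.9 to 36.5 on day 25. In Dnmt1 KO they summed to 65.8 to 76.1 RPM on day 1, 98.6 to 126 on day 3, 70.7 to 101 on day 9, 106 to 118 on day 11 and 39.8 to 51.4 on day 25. The sum was thus lowest on day 25, as the members were, but in both genotypes its highest mean was on day 11 and not on day 9. In Dnmt1 KO the means of days 3 and 11 were close, at 109.8 and 111.5 RPM, and the highest library was of day 3. On day 11 most of the sum was 1 gene, Fn1 (fibronectin), at 84.7 to 95.6 RPM in control and 62.5 to 73.0 in Dnmt1 KO. In control Fn1 was at 35.3 to 40.5 RPM on day 9 and 14.3 to 19.2 on day 25. In Dnmt1 KO it was at up to 41.2 RPM on day 9 and 20.8 to 28.9 on day 25. The day 11 level of the sum therefore does not speak for the 18 genes as a set. Of these 18 genes, 11 to 13 had no read in the control libraries of day 25 and 12 to 14 in those of Dnmt1 KO, against 4 to 5 and 2 to 3 on day 9. The defining markers did not go one way. Col1a1, Col3a1 and Thy1 had no read in the 6 libraries of day 25, while on day 9 they had 35, 9 and 9 reads in control and 88, 16 and 5 in Dnmt1 KO. The totals were 1894376 and 1930514 reads on day 25 (control and Dnmt1 KO) against 15307300 and 18613749 on day 9. A gene with as few reads as Col3a1 or Thy1 could go unseen on day 25 at an unchanged level. On day 25 Col1a2 had 2 reads in control against 5 in Dnmt1 KO, at up to 4.82 RPM against 4.36 to 12.9 RPM on day 9. Col1a2 shared the members' day 9 peak, in control at 2.06 to 3.40 RPM on day 6, 4.36 to 6.70 on day 9 and 0.539 to 1.65 on day 11. In Dnmt1 KO it was at 7.76 to 12.9 RPM on day 9 and 1.26 to 3.18 on day 11. Col1a1 had no such peak, in Dnmt1 KO at 4.67 to 6.32 RPM on day 6 and 3.56 to 5.65 on day 9. Vim, which encodes vimentin, was at 1.79 to 5.76 RPM in control and 3.79 to 4.82 RPM in Dnmt1 KO on day 25, within or near its range of 2.29 to 6.62 RPM on day 9. Sparc in Dnmt1 KO was at 9.65 to 13.3 RPM on day 25 and 10.2 to 11.8 RPM on day 9, and its log2 level on day 25 less day 1 was 1.08, against -0.21 in control. Libraries of day 25 were shallower, and the part of fibroblasts, feeders or depth in the members' course was not tested. The 7 features of the ESC cluster Mir290 to Mir295 went the other way, with a median of 0.70 in control and 0.21 in Dnmt1 KO from day 1 to day 25.

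The comparison of Dnmt1 KO with control within each day asks whether these miRNAs differ between the genotypes. If control cells were not induced, effects of tamoxifen and Cre cannot be told apart from loss of Dnmt1. DNA methylation was not measured in these libraries. The comparison does not use the course that chose the members, although that course was seen in both genotypes. On days 3, 6 and 9, 3 of 5 members passed as higher in Dnmt1 KO, and on day 11 it was 2. On the scaled log2 values that were tested, all 5 lay above control without overlap on day 3, where 13.8% of tested features were; on day 6 this held for 3 (Mir143, Mir145 and Mir214; in RPM also for Mir199a-2 and Mir199b, by small gaps), beside 25.9%, and on day 9 for all 5, beside 28.7%. No member passed the test on day 1, at log2 differences of -0.34 to 0.29. Differences are tested with limma, with Benjamini-Hochberg adjustment over all tested features, and given with their SE.

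Mir143 was at 10524, 10311 and 10122 RPM in control and 17554, 15788 and 15186 RPM in Dnmt1 KO on day 3, groups that did not overlap. Its log2 difference was 0.00 ± 0.10 on day 1 (adjusted p = 0.999). It was 0.67 ± 0.10 on day 3 (2.08e-05), 0.73 ± 0.10 on day 6 (4.33e-07), 0.95 ± 0.10 on day 9 (1.13e-09), 0.38 ± 0.10 on day 11 (0.00983) and 0.48 ± 0.10 on day 25 (0.000280). The mean of Dnmt1 KO was 1.77 times that of control on day 9 and 1.23 times on day 11. Averaged over the 6 days the difference was 0.54 ± 0.04 (adjusted p = 8.00e-14).

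Mir145 was at 117, 85.4 and 87.6 RPM in control and 144, 137 and 143 RPM in Dnmt1 KO on day 9. Its log2 differences were 0.61 ± 0.16 on day 3 (adjusted p = 0.0109), 0.43 ± 0.16 on day 6 (0.0428), 0.67 ± 0.16 on day 9 (0.00134) and 0.64 ± 0.16 on day 11 (0.00370). On day 25 the difference was negative, with 37.6 to 57.6 RPM in control and 28.2 to 33.8 RPM in Dnmt1 KO and a difference of -0.41 ± 0.16 (adjusted p = 0.0373). That call rests on 84 reads in control and 59 in Dnmt1 KO and was lost without control replicate 2 (-0.27, adjusted p = 0.204) or Dnmt1 KO replicate 2 (-0.42, 0.0596), and with day 25 fitted alone (0.240), with limma-voom (0.375), with no filter (0.130) and with the replicate block (0.0522). The call of day 6 was lost without any 1 of 5 of its 6 libraries, all but control replicate 1, with the difference between 0.23 and 0.49 and the lowest without control replicate 3.

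Mir214 was at 71.7, 66.0 and 53.3 RPM in control and 111, 138 and 129 RPM in Dnmt1 KO on day 6, groups that did not overlap, at a log2 difference of 0.87 ± 0.23 (adjusted p = 0.00413). On day 3 the difference was 0.61 ± 0.23 (adjusted p = 0.124), on day 9 0.60 ± 0.23 (0.0684) and on day 11 0.49 ± 0.23 (0.258), none of which passed the threshold. On day 25 the fitted difference of 1.104 ± 0.23 passed it (adjusted p = 0.000229) on 1 read in control against 4 in Dnmt1 KO. Both groups are at the floor of the depth there, and no fold is drawn from it. Averaged over the 6 days the difference was 0.62 ± 0.09 (adjusted p = 1.47e-06), and over days 1 to 11, fitted without the day 25 libraries, 0.52 ± 0.07 (2.31e-08).

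Mir199a-2 was higher in Dnmt1 KO on day 3 (13.2 to 16.9 against 20.04 to 41.1 RPM, log2 difference 0.87 ± 0.27, adjusted p = 0.0404) and on day 9 (19.8 to 22.01 against 30.4 to 38.9 RPM, 0.86 ± 0.27, adjusted p = 0.0185). The call of day 3 was lost without any 1 of the 3 control libraries or of Dnmt1 KO replicates 1 and 2 (lowest 0.58, without Dnmt1 KO replicate 1), and that of day 9 without control replicate 2 or 3 or Dnmt1 KO replicate 1 or 3 (lowest 0.72). Its fitted day 25 difference of 0.83 ± 0.27 (adjusted p = 0.0130) rests on 0 reads against 2 and is not read as a change. Mir199b passed on no single day, at 0.67 ± 0.32 on day 3 (adjusted p = 0.249), 0.61 ± 0.32 on day 9 (0.212) and -0.75 ± 0.32 on day 25 (0.0648), and its mean over the 6 days was 0.10 ± 0.13 (0.629).

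**Figure D3:**
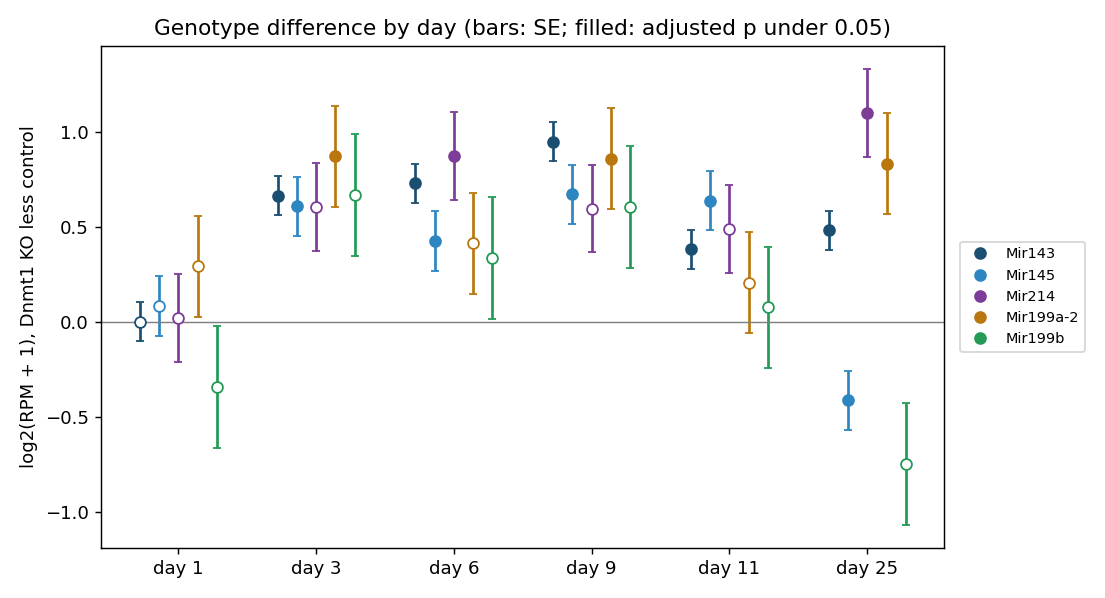
Log2(RPM + 1) in Dnmt1 KO less control (vertical axis) on each day (horizontal axis) for 5 members, with bars of 1 SE and filled points where the adjusted p was under 0.05. Differences lie around 0 on day 1 and between 0.34 and 0.95 on days 3 to 9. On day 25 Mir145 is at -0.41 and Mir143 at 0.48, and Mir214, Mir199a-2 and Mir199b rest on at most 3 reads a library.

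Counted over the members, 0 of 5 passed on day 1, beside 3.8% of all tested features, 3 on day 3 beside 6.24%, 3 on day 6 beside 23%, 3 on day 9 beside 18.4%, 2 on day 11 beside 8.64% and 4 on day 25 beside 35%, 2 of those 4 at the floor. On days 3 to 11 each of these calls was higher in Dnmt1 KO, and on day 25 Mir145 was lower. On day 1 no member passed at an unadjusted p under 0.05 or with limma-voom on the reads read back. Averaged over days, 4 of 5 were higher, beside 26.7% of features called. Among the 287 miRNA features alone the shares called were larger, 27.5% on day 3, 57.5% on day 6, 54.7% on day 9, 36.2% on day 11, 69.3% on day 25 and 71.4% for the mean, and on every day from 6 on the members' counts stand near those of miRNAs at large. The same holds for the difference between day 25 and day 1 (53.3% of miRNA features) and for AGO2 (45.2% of 261). Fitted without the 6 day 25 libraries, 5 of 5 members passed on day 3, where 13.1% of 2252 features were called, on day 9 (27.2%) and for the mean of the 5 days left (36.1%). There Mir199b was at 0.27 ± 0.09 (adjusted p = 0.0123), so whether it passed depended on the day 25 libraries.

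The genotype difference itself was compared between days. Between day 25 and day 1 it differed for 2 of 5 members, beside 19.9% of features. Mir143 gained 0.48 ± 0.15 (adjusted p = 0.0158), a call lost without control replicate 3 or Dnmt1 KO replicate 2 of day 1 or Dnmt1 KO replicate 2 of day 25 (lowest 0.38, adjusted p up to 0.0751). With library totals as the only scaling it was 0.28 and did not pass (0.127), while Mir145 passed there at -0.69 (0.0203), so that which member was called depended on the scaling. Mir214 gained 1.08 ± 0.33 (adjusted p = 0.0161), which rests on the 5 reads of day 25. Mir145 went the other way, at -0.50 ± 0.22 (adjusted p = 0.112). Between day 11 and day 1 no member passed in limma, beside 9.02% of features. Of these, 2 (Mir143 at 0.38 ± 0.15 and Mir145 at 0.56 ± 0.22) had an unadjusted p under 0.05, and both passed with limma-voom on reads read back.

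In lists of other genes the mean over days was higher in Dnmt1 KO for 10 and lower for 1 of 17 other fibroblast miRNA features (median 0.21), higher for 2 of 3 tested fibroblast mRNAs (median 0.51), higher for 1 and lower for 1 of 7 ESC miRNAs (-0.04), higher for 2 of 6 pluripotency genes (0.10), higher for 4 and lower for 2 of 8 miRNAs of other cell types (0.08) and higher for 2 of 3 tested host genes (0.60), which are Dnm3 and Dnm3os and hold the members' own reads. The most abundant of the fibroblast miRNAs were Mir22, at 0.53 ± 0.06 (adjusted p = 2.00e-10), and Mir21, at 0.39 ± 0.04 (1.40e-09). Sparc, a matrix protein gene of fibroblasts and other cells, was at 0.51 ± 0.12 (0.00128), and Fn1, which encodes fibronectin, at 0.05 ± 0.07 (0.603). Among miRNAs of other cell types, the blood cell miRNA Mir142 was at 0.53 ± 0.07 (1.64e-08) and the endothelial Mir126 at -0.04 ± 0.06 (0.676). The summed fibroblast mRNA level was 70.7 to 101 RPM in Dnmt1 KO against 64.6 to 74.2 in control on day 9, and 39.8 to 51.4 against 26.9 to 36.5 on day 25. Its part in the genotype differences of the members was not tested. In Mir295 and Mir292, the most abundant ESC miRNAs, the means over days were -0.06 ± 0.03 (0.167) and -0.04 ± 0.04 (0.521), and in the pluripotency genes Esrrb and Sox2 they were 0.17 ± 0.08 (0.0942) and 0.25 ± 0.10 (0.0468).

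Single days differed from these means. On day 25 alone, 0 of 7 ESC miRNAs were higher and 5 lower in Dnmt1 KO (median -0.39), with Mir295 at -0.39 ± 0.08 (adjusted p = 8.28e-05) and Mir292 at -0.37 ± 0.10 (0.00256). Of the 17 other fibroblast miRNA features 4 were higher and 6 lower that day (median -0.34), with Mir22 at 0.60 ± 0.14 (0.000485) and Mir21 at -0.34 ± 0.11 (0.0117). Fn1 was higher by 0.69 ± 0.16 (0.000687) and Sparc by 1.104 ± 0.30 (0.0038), and of 6 pluripotency genes 3 were higher. The blood cell miRNA Mir142 was at 0.42 ± 0.16 on day 3 (limma, adjusted p = 0.124) and 0.51 ± 0.16 on day 6 (0.0174). It was at 1.44 on day 9 (2.12e-09), 1.63 ± 0.16 on day 11 (8.67e-11) and -0.42 on day 25 (0.0399). Mir142 was thus called higher on days 6 to 11, not called on day 3 and called lower on day 25. Its part in the members' differences was not tested.

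AGO2 libraries ask which small RNAs are bound by this effector protein. Of the members only Mir143 and Mir145 passed the filter there, where 456 features were tested. Mir143 was at 1811, 1492, 1307 and 1607 RPM in AGO2 control and at 3651, 3974, 4266 and 4325 RPM in AGO2 KO, groups that did not overlap, with means of 1554 ± 211 and 4054 ± 310 RPM (SD, n = 4). The log2 difference was 1.13 ± 0.15 (adjusted p = 0.000254; 0.0015 with replicate numbers as a block). Mir145 was at 19.0, 22.4, 28.4 and 23.95 RPM in control and 39.9, 38.6, 57.2 and 40.9 RPM in KO, which did not overlap either, but its difference of 0.63 ± 0.24 did not pass (adjusted p = 0.0724; 0.0519 with the block). With library totals as the only scaling it was 0.88 and passed (0.0132). So 1 of 2 tested members was called, beside 36.4% of features. Of the other fibroblast miRNAs 15 were tested there, of which 0 were higher and 4 lower in AGO2 KO (median -0.36) after scaling. In unscaled RPM the sum of that list was higher in AGO2 KO without overlap, at 97417 to 122473 against 63118 to 96915. The scaled difference of Mir21, an abundant member of that list, was 0.85 ± 0.38 and did not pass (0.115).

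Of the miRNAs of other cell types, the blood cell miRNA Mir142 was higher in AGO2 KO by 1.41 ± 0.22 (limma, adjusted p = 0.000961). The endothelial Mir126 lay the other way, at -0.48 ± 0.21, and did not pass (0.107). In unscaled RPM that list summed to 7111 to 11582 in AGO2 KO against 4782 to 6328 in AGO2 control. Of the ESC miRNAs Mir295 was lower, at -0.48 ± 0.15 (0.0322), and Mir292 higher, at 0.46 ± 0.13 (0.0233). Their part in the Mir143 difference was not tested. With no filter on low values (16650 features) Mir143 was at 0.22 (0.751) and Mir145 at -0.25 (0.840), and Mir199b at -1.79 (1.59e-05) and Mir214 at 0.90 (0.0150) were called there. With replicates 1 and 2 and replicates 3 and 4 averaged into 2 samples per genotype Mir143 was at 1.09 (0.0517). Most AGO2 KO libraries were shallower than the AGO2 control libraries, at 1152390 to 11520128 against 11497722 to 25422988 reads, and the part of depth was not tested. Since the genotype tags of these libraries are the reverse of their titles, the direction holds for the libraries titled KO and control.

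Against total RNA of day 9, the members stood lower in the AGO2 libraries than most miRNAs did. The ratio of mean RPM in AGO2 to that in total RNA was 0.126 in control and 0.186 in Dnmt1 KO for Mir143 and 0.242 and 0.313 for Mir145, where the median over 242 and 257 miRNA features (at least 10 RPM on day 9) was 1.06 and 1.51. For Mir143 49 of the 242 features in control and 21 of the 257 in Dnmt1 KO had a lower ratio. Mir214 stood lowest of the members in both, with 0.132 RPM in AGO2 control against 205 RPM in total RNA (1 feature lower) and 3.08 against 289 RPM in Dnmt1 KO (6 features lower). Its AGO2 reads were 2, 5, 0 and 0 in control and 7, 9, 0 and 5 in KO. Mir199a-2 had ratios of 0.0258 and 0.0118, and Mir199b 0.238 and 0.0580. Values in the 2 kinds of library were normalised each to its own total, and 97.85% to 99.05% of reads in the AGO2 libraries were on miRNAs against 57.2% to 59.5% on day 9, so these ratios are given with no test. As ratios of the share of miRNA reads they were lower still, 0.0735 and 0.111 for Mir143. Fibroblast mRNAs summed to 1.65 to 3.15 RPM in AGO2 control and 1.29 to 6.07 RPM in AGO2 KO, and their part in these ratios was not tested.

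In the libraries labelled "none" Mir143 had 100 reads in control, 1750 RPM (95% exact Poisson interval 1424 to 2128), and 18 reads in Dnmt1 KO, 1831 RPM (1085 to 2894). The interval of control overlaps the range of AGO2 control and lies below that of AGO2 KO. The interval of Dnmt1 KO also lies below the range of AGO2 KO. The methods of the study name a negative control of the pull-down, beads given extract but no serum. No source used here says whether the "none" libraries are that control, and enrichment over them was not tested. The other members had no read in the "none" libraries, which at 3 reads allows up to 52.5 and 305 RPM.

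PGCs, the precursors of eggs and sperm, were sorted from embryos and had 1 library per sex and day, so no test applies. Mir143 was at 694 RPM (664 to 726) in females and 788 (756 to 820) in males of E13.5, and at 540 (516 to 565) and 571 (536 to 608) RPM at E14.5. In RPM all 4 values lay below every time course library. However, miRNA features held 36.7% to 55.6% of reads in these PGC libraries against 52.9% to 57.8% on day 25. The order within miRNA reads was not tested. Mir214 was at 12.4 (8.66 to 17.3) and 13.4 (9.60 to 18.3) RPM at E13.5, and at 4.07 (2.23 to 6.84) and 2.31 (0.628 to 5.90) at E14.5. Mir145 was at 7.11 (4.34 to 10.98) and 7.72 (4.90 to 11.6) RPM at E13.5 and 2.04 (0.819 to 4.20) and 1.73 (0.357 to 5.05) at E14.5. In RPM the 3 members were lower at E14.5 in these libraries, by more than counting error for Mir143 and Mir214. The female Mir145 intervals were also apart, and the male ones overlapped. Yet miRNA features held 42.6% and 55.6% of reads at E13.5 (female and male) and 36.7% and 40.0% at E14.5. The RPM differences therefore do not show lower levels within miRNA reads. The R1-suffixed E14.5 male library, however, gave 759 RPM for Mir143, 10.5 for Mir214 and 7.53 for Mir145, values like those of E13.5. Mir199a-2 had 8, 2, 3 and 3 reads, Mir199b 3, 5, 1 and 2, and Mir199a-1 none.

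Markers of the cells that could come along in the sort were measured too. The 6 genes of gonad somatic cells summed to 0.355 to 4.61 RPM, with 4 or 5 of them without a read. In control ESCs of day 6 the same sum reached 4.53 RPM. Of the most abundant in that list, Wt1 had 1, 1, 0 and 0 reads (E13.5 female and male, E14.5 female and male). Amh, the hormone of Sertoli cells, had none at E13.5 but 6 and 5 reads at E14.5, 1.75 and 2.88 RPM. These 2 values lay above every time course library without the R1 suffix, but an R1-suffixed Dnmt1 KO library of day 3 held 3.69 RPM on 2 reads. Fibroblast mRNAs summed to 36.2, 38.6, 21.0 and 36.3 RPM, with 10 to 14 of 18 genes at 0. Most of each sum was Fn1, at 17.8 to 36.3 RPM on 71, 108, 61 and 55 reads. In the same order Col1a1 had 2, 1, 6 and 3 reads and Sparc 15, 1, 4 and 3. Col1a2 had 2 reads in the E13.5 female library only, and Col3a1 and Thy1 had none. The 3 germ cell genes summed to 172, 66.5, 47.1 and 55.9 RPM in the same order, against at most 8.97 RPM on days 9 and 25. Dazl, a germ cell RNA-binding protein gene, was at 119, 37.9, 23.0 and 21.9 RPM. Ddx4, a germ cell RNA helicase, was at 34.8, 16.8, 12.2 and 17.9 RPM, and in the time course at no more than 4.82 RPM. The part of somatic cells in the PGC values was not tested.

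**Figure D4:**
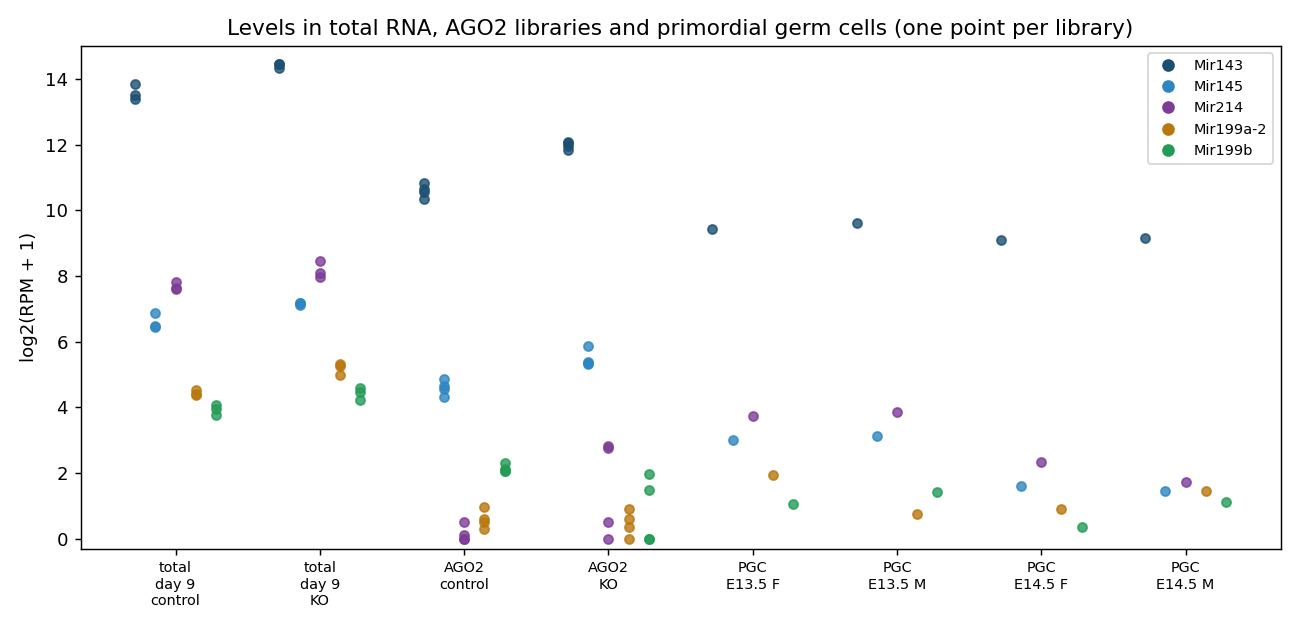
Log2(RPM + 1) (vertical axis) of 5 members in total RNA of day 9, AGO2 libraries and PGCs (horizontal axis, F female and M male), with 1 point per library. Mir143 has means of 12314 and 21773 RPM in total RNA against 1554 and 4054 RPM in AGO2, and Mir214 of 205 and 289 RPM against 0.132 and 3.08 RPM. Points under about 2 on this scale rest on few reads, and series differ in total reads.

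The R1-suffixed libraries of days 1 to 11 gave Mir143 at 0.909 to 1.02 times its value in the library of the same name in 30 pairs, and Mir214 at 0.759 to 1.26 times. Mir145 was at 0.635 to 1.29 times, and the Mir199 features, with 0 to 66 reads in an R1 library, scattered from 0 to 2.36 times. The only reads of Mir199a-1 in 83 libraries were 2, in the R1-suffixed Dnmt1 KO replicate 1 of day 1. The PGC libraries with the suffix stood apart, with Mir143 at 69.8 RPM in the E13.5 female and no read in the E13.5 male, of 114631 and 60317 reads.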

How the data were processed

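Small RNA of 83 libraries was sequenced by the authors, trimmed with Trim Galore 0.3.5 and aligned with Bowtie2 2.2.9 to NCBIM37 (tools and builds per the submitters' processing notes), and the authors kept reads of 20 to 24 bases. The deposited table gives RPKM for 32101 features, made by the authors. RPM was computed as RPKM times the span of the feature in kilobases, and whole reads were read back from the steps of low values (100% of the low values checked were whole within 0.05 of a step in each of the 83 libraries). How reads with several places were handled is not given in the sources used here. Groups came from the titles, since genotype tags contradict titles and source names in some R1-suffixed, AGO2 and "none" libraries.

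Time course and AGO2 libraries were each fitted in limma 3.58.1 (R 4.3.3) on log2(RPM + 1) after scaling by trimmed means of log ratios (30% of log ratios and 5% of abundances trimmed), with features at 10 RPM or more in at least 3 libraries, over all groups, and p-values were adjusted by Benjamini-Hochberg over all tested features at 0.05. No count test was the main test because the values are RPKM. Scripts were tested on simulated data. Replicate numbers were checked for pairing by the correlation of same-numbered deviations from group means. It was 0.194 to 0.386 in the 4 AGO2 pairs, so the numbers pair those libraries by this check, and -0.066 to 0.047 in the 18 time course pairs, which share only a number. Alternatives covered scaling, filter, pseudocount, single libraries, the block, voom and R1-suffixed libraries. Intervals and floors (3 reads) cover counting error only, since reads carry no molecular identifiers.

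The members and lists were chosen with earlier results of these data known. Named were all members, the genes that hold them, the 10 features most alike the members' mean course and the 5 most alike each cluster, and the 2 most abundant genes of each list (other fibroblast miRNAs, fibroblast mRNAs, ESC miRNAs, pluripotency, germ cell and gonad soma genes, miRNAs of other cell types, hosts). No germ cell or gonad soma gene passed the filter. Mirlet7i, Vim and the collagen and Thy1 markers, and the levels of Fn1, were given values after these were seen.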

Additional observations from a re-analysis of the deposited data

Results flagged for a closer look

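The fitted genotype difference of Mir143 was larger on day 25 than on day 1 by 0.48 on the log2 scale (limma, adjusted p = 0.0158), since the interaction of genotype and day passed the test. With library totals only it was 0.28 and did not pass (0.127), nor did it with limma-voom (0.0590), with no filter (0.402) or without some single libraries of day 1 or day 25. For Mir214 the same interaction was 1.08 (adjusted p = 0.0161), and it rests on 5 reads of day 25, 1 of them in control, and did not pass with limma-voom (0.341), with no filter (0.2996) or at a pseudocount of 5 RPM (0.307). In AGO2 KO the highest Mir145 library, replicate 3, stood apart at 57.2 RPM from the other 3 at 38.6 to 40.9 RPM. If values are normal, the cutoff used to flag such a gap is passed by chance in about 1 in 20 groups, and several groups were looked at.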

How the results depend on the processing

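The mean over 6 days gave 4 members called whichever of 36 libraries was left out, with 2 called at a minimum of 10 reads in every library, where only 2 members were fitted. Members called on day 3 were 5 with limma-voom and 5 without the 6 day 25 libraries (an alternative chosen after seeing the data), and 1 with no filter and 1 with R1-suffixed libraries. On day 6 there was 1 with no filter. On day 9 there were 5 with each day alone, limma-voom, a pseudocount of 5 RPM or no day 25 libraries, and 1 with R1-suffixed libraries, which also gave 1 on day 1 and 1 on day 11. On day 25, where 2 calls rest on at most 4 reads, there were 2 with the 10-read minimum, no filter or a pseudocount of 5 RPM, and 1 with the day alone or limma-voom. The day 25 less day 1 interaction had 1 with the 10-read minimum or a pseudocount of 5 RPM and 0 with limma-voom or no filter. The day 11 less day 1 interaction had 2 with limma-voom and 1 with median-ratio size factors. In AGO2 there were 2 with library totals, 2 (other members) with no filter and 0 with means of replicate pairs. Leaving out 1 library gave 1 to 2 members called in AGO2 and on day 11, 0 to 1 for day 11 less day 1, 2 to 5 on day 25, 1 to 3 for day 25 less day 1 and on day 3, 2 to 3 on days 6 and 9, and 0 on day 1. The call of Mir143 on day 11 was lost without Dnmt1 KO replicate 2 (adjusted p = 0.0865, limma), and those of Mir145 on day 11 and day 3 without control replicate 2 (0.0502) and control replicate 1 (0.0692) of those days. The Mir214 interaction was lost without control replicate 2 or 3 of day 25, Dnmt1 KO replicate 2 of day 1 or replicate 1 of day 25 (0.85 to 0.97).

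The members' median from day 1 to day 25 was -1.96 in control and -1.97 in Dnmt1 KO at a pseudocount of 5 RPM, and -2.80 in control with R1-suffixed libraries. From day 11 to day 25 it was -2.08 and -2.01 at 5 RPM, and -3.55 to -3.04 in Dnmt1 KO when 1 library was left out. The list of 10 most alike features kept 6 with Spearman's rho and 5 without day 25. Directions turned near 0 for Mir143 on day 1 (-0.012 without day 25, -0.080 to 0.11 without 1 library), Mir145 on day 1 (-0.033 to 0.23), Mir214 on day 1 (-0.024 with R1-suffixed libraries, -0.066 to 0.13), Mir199a-2 (-0.049 on day 6 and -0.051 on day 11 with R1-suffixed libraries, -0.0053 for day 25 less day 1 at 5 RPM, -0.31 to 0.094 for day 11 less day 1) and Mir199b (-0.060 on day 9 with R1-suffixed libraries, -0.030 to 0.20 for the mean, -0.97 to 0.16 for day 25 less day 1). Further off 0 were Mir199b with R1-suffixed libraries (2.14 on day 1, 0.14 for control day 25 less day 1) and Mir145 in AGO2 with no filter (-0.25). The causes were not tested.

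With the replicate block, the numbers of the time course, which do not pair, moved the count of called features by little, on day 1 from 98 to 106 and on day 25 from 904 to 893. The calls of Mir145 on day 6 (adjusted p = 0.0608) and day 25 (0.0522) were lost, and Mir214 was called on day 3 (0.0163), day 9 (0.00687) and day 11 (0.0493). In AGO2 the block changed no call of a member. Depth limits the Mir199 and Mir214 values of day 25 to a few reads.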
